A study of Mus musculus with 6 samples.

Results

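The ATF4 and CHOP branch of the integrated stress response was followed in the liver of HFD-fed mice that received esculetin or vehicle. The 10 genes described here were listed by name (Atf3, Atf4, Atf5, Ddit3, Trib3, Chac1, Sesn2, Asns, Ppp1r15a and Nupr1) as members of this branch, and were found by gene symbol among 55357 gene identifiers of the counts table. All 10 had enough counts to be tested, among 14433 genes tested in all. C57BL6/J male mice of wild-type genotype, aged 8 to 9 weeks, were gavaged daily for 7 days with 2.5% Tween-80 (vehicle) or with esculetin, a coumarin derivative. Both groups ate a control diet with 10% of kcal from fat for 4 days and then a high-fat diet (HFD) with 60% of kcal from fat for 3 days, so each group had the diet change and the daily gavage, and no library came from mice kept on the control diet. Total RNA of liver was sequenced in 3 vehicle and 3 esculetin libraries, each from a pair of mice. The dose of the same esculetin libraries differs between fields of the annotation (180 mg/kg/d in titles and protocol, 90 mg/kg/d under treatment), so the group is named here without a dose.

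In the integrated stress response, kinases that sense different stresses phosphorylate the translation factor eIF2, which lowers protein synthesis in general but favours translation of the mRNA of Atf4. ATF4 is a bZIP transcription factor that pairs with other bZIP proteins on C/EBP-ATF response elements (CARE) and switches on genes for amino acid supply, redox balance and further stress signalling, among them Ddit3, which encodes CHOP. In liver this branch is known to respond to amino acid shortage, to unfolded proteins in the endoplasmic reticulum (ER) and to mitochondrial stress. Because ATF4 itself is controlled largely at translation, its mRNA level and the level of its protein need not move together, and only mRNA was measured here.

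The total counts of the libraries lay between 27957713 and 34920922, with the 3 esculetin libraries above the 3 vehicle libraries. The totals were scaled by TMM factors of 0.979 to 1.02, and 3 counts, the floor used for low values, correspond to 0.0865 to 0.109 CPM (counts relative to the scaled library total). The coefficient of variation between libraries of a group, as edgeR estimates it, was 14.6%. Of all genes tested, 452 were called, which required both a fold change over 1.5 and an unadjusted p-value under 0.05, and 6 had a Benjamini-Hochberg adjusted p-value under 0.05. The count of 6 depended on the method, since it was 193 with DESeq2 and 477 in edgeR without the filter on low counts, and 45 without vehicle replicate 1. Hepatocyte markers dominated, with a summed level of 85563 to 90825 CPM in the 6 libraries, and 6 of 7 pancreatic acinar markers were at 0 counts in every library. In bulk liver, fewer cells of a type and less RNA per cell cannot be told apart.

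Promoter sequence was read to see which of the 10 genes carry the element that ATF4 is known to read. The CARE core was searched as TGATGNAA and the cAMP response element (CRE) as TGACGTCA, on both strands, in RefSeq promoter windows from 250 bases before to 50 bases after each transcription start (build GRCm38.p6, whereas the counts were made on GRCm39). The 10 genes matched 11 windows, since Atf5 had 2. The CARE core was found for 5 of the 10 genes and in 3.97% of 32851 promoters, and the CRE for 1 of the 10 genes and in 1.79% of promoters. The 2 motifs differ by more than 1 letter and did not overlap in these windows. Each stretch is printed along the strand of its gene, with the matched letters in capitals.
Atf3: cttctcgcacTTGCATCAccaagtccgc
Chac1: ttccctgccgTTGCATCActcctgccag
Nupr1: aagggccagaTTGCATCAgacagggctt
Trib3: tagctcaggtTTACATCAgccgggcggg
Asns: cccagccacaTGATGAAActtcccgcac
Ppp1r15a: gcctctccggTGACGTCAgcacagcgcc
Atf3 (chr1:191183426-191183453, minus strand), Chac1 (chr2:119351039-119351066, plus strand) and Nupr1 (chr7:126625563-126625590, minus strand) held the same 8 letters, TTGCATCA, which is the CARE core read on the opposite strand. Their first matched letter lay 110, 193 and 110 bases before the start. The match of Trib3 (chr2:152344029-152344056, minus strand) read TTACATCA and lay from base 15 after the start. The match of Asns (chr6:7693215-7693242, minus strand) lay on the strand of the gene, 23 bases before the start. Ppp1r15a (chr7:45526263-45526290, minus strand) held a CRE 12 bases before the start and no CARE core. The windows of Atf4, Atf5, Ddit3 and Sesn2 held neither motif. These matches describe letters in a short window and say nothing about binding.

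Between esculetin and vehicle, Asns was lower with esculetin, and the other 9 genes did not pass the test. Asns was the 1 gene of the 10 that was called, against 3.13% of all genes tested in either direction and 1.76% in the lower direction, and 0 of the 10 were called higher, against 1.37%. An unadjusted p-value under 0.05 was reached by 1 of the 10 genes, against 11.9% of all genes, and an adjusted p-value under 0.05 by 0 of the 10, against 0.0416%. The fitted fold change was above 1 for 7 genes and below 1 for 3, with a median log2 fold change of 0.11, while the median over all genes tested was -0.01. For 9 genes the 95% interval of the fold change included no change. It lay within 1.5-fold in either direction for 3 of them, Atf4, Atf5 and Ppp1r15a, while for the others a 1.5-fold change could not be told from none at this depth and spread.

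**Figure D1:**
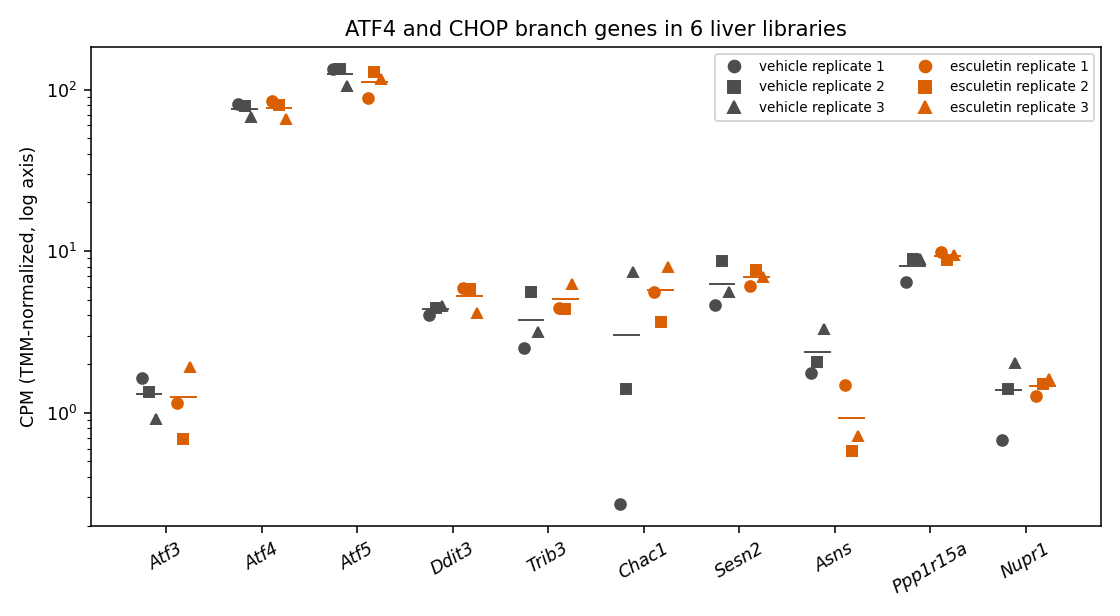
Level of each gene in each library, as TMM-normalized CPM on a log axis. Grey symbols are vehicle and orange symbols esculetin libraries, the symbol shape gives the replicate number and the short line is the group mean (n = 3). Asns is the gene whose groups do not overlap, and Chac1 has the widest spread among vehicle libraries.

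Levels were compared between genes per length, as FPKM (CPM divided by the canonical transcript's length in kilobases), averaged over the 6 libraries. Atf5 (64.8 FPKM, from 49.0 to 73.6) was above Atf4 (43.9 FPKM, from 37.8 to 48.6), and their ranges over libraries did not overlap. Ddit3 followed at 4.92 FPKM, and its range lay below that of Atf4. The remaining order was Ppp1r15a (3.75 FPKM), Chac1 (2.64), Trib3 (2.10), Sesn2 (1.89), Nupr1 (1.71), Atf3 (0.643) and Asns (0.336 FPKM), and each of these genes overlapped its neighbour in range, as did Ddit3 and Ppp1r15a. When all annotated exons were used as the length, Atf5, Atf4 and Asns stayed first, second and last, and Ddit3, which has an annotated exon total of 5579 bases against 979 in its canonical transcript, moved to rank 7. So the branch in these livers consisted of 2 abundant bZIP factors and 8 genes with a mean of 4.92 FPKM or less.

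Asns encodes asparagine synthetase, which makes asparagine from aspartate and glutamine and is a standard readout of ATF4 activity under amino acid shortage. It lies on chromosome 6 of GRCm39 from 7671667 to 7728461 on the minus strand. Its level was 1.77, 2.06 and 3.28 CPM in vehicle replicates 1, 2 and 3 and 1.49, 0.577 and 0.717 CPM in esculetin replicates 1, 2 and 3, from 52, 67 and 90 counts and 48, 20 and 24 counts. All 3 esculetin libraries were below all 3 vehicle libraries, as was true of 8.24% of all genes tested, and esculetin replicate 1 was close to vehicle replicate 1 while the other two esculetin libraries were well below. The mean was 2.37 ± 0.803 CPM (SD, n = 3) with vehicle and 0.929 ± 0.493 CPM with esculetin. The log2 fold change was -1.35 with a standard error of 0.40, which is a fold of 0.392 with a 95% interval of 0.212 to 0.727 (edgeR's quasi-likelihood test, unadjusted p = 0.00712, adjusted p = 0.246). The difference thus did not pass the correction over all genes. Leaving out 1 library at a time moved the log2 fold change between -1.86, without esculetin replicate 1, and -1.05, without vehicle replicate 3, and Asns was called each time. Asns was also called with each other test, scaling, filter and fold threshold tried, and its adjusted p-value ranged from 0.00635, without the filter on low counts, to 0.352 with all 6 libraries.

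Pancreatic acinar tissue is known for high Asns, and its markers were therefore looked at beside this result. Of 7 acinar markers, 6 (Prss2, Cpb1, Cela3b, Ctrb1, Pnlip and Cpa1) were at 0 counts in every library. The 1 that was detected, Cela2a, was at 21, 21 and 18 counts with vehicle and 8, 11 and 16 counts with esculetin. Its level in esculetin replicate 1 (0.249 CPM) was under the filter on low counts (0.309 CPM in 3 libraries). Cela2a thus passed that filter through the vehicle libraries, so its difference is given as counts only. The part of acinar tissue in the Asns result was not tested. The antisense gene 1700012J15Rik, which overlaps Asns over 35486 bases, was at 0 counts in every library.

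Atf4 (chromosome 15, 80139372 to 80141745, plus strand) encodes the factor that names the branch. Its mRNA was at 81.8, 78.8 and 67.4 CPM with vehicle and 84.7, 80.0 and 65.8 CPM with esculetin. The groups overlapped fully, with replicate 3 the lowest library of each. The fold was 1.01 with a 95% interval of 0.851 to 1.2 (unadjusted p = 0.894, edgeR's quasi-likelihood test), the narrowest interval of the 10 genes. Its direction was not fixed, since the log2 fold change was 0.02 with TMM and -0.01 when only total counts were used for scaling.

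Atf5 (chromosome 7, 44461680 to 44466082, minus strand) encodes a bZIP factor that is translated under phosphorylated eIF2 in the same manner as ATF4 and has been tied to the mitochondrial stress response. It was at 133, 134 and 105 CPM with vehicle and 89.0, 128 and 116 CPM with esculetin. Esculetin replicate 1 was the lowest library and the other two esculetin libraries lay inside the vehicle range. Its log2 fold change was -0.16 with a standard error of 0.14 and a fold interval of 0.721 to 1.11 (unadjusted p = 0.277). Atf5 shares 729 bases with Nup62 on the opposite strand, and Nup62 was at 6.28 ± 0.785 CPM with vehicle and 7.33 ± 0.758 CPM with esculetin (n = 3).

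Ddit3 (chromosome 10, 127124268 to 127132163, plus strand) encodes CHOP, a C/EBP-like factor that acts with ATF4 in prolonged stress. It was at 4.05, 4.45 and 4.56 CPM with vehicle and 5.88, 5.85 and 4.12 CPM with esculetin. Esculetin replicates 1 and 2 were above all vehicle libraries, while esculetin replicate 3 lay inside the vehicle range. Ddit3 had a log2 fold change of 0.28 with a standard error of 0.18 (fold 1.21, 95% interval 0.915 to 1.61, edgeR's quasi-likelihood test, unadjusted p = 0.157, adjusted p = 0.589). A second identifier with the symbol Ddit3 was at 0 counts in every library. Ddit3 overlaps Mars1 on the opposite strand over 3820 bases, and Mars1 was at 51.5 ± 2.21 CPM with vehicle and 49.6 ± 0.453 CPM with esculetin. The strand setting of the counting is not given in the sources used here, so the values of these overlapping genes are uncertain.

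Atf3 (chromosome 1, 190902493 to 190950241, minus strand) encodes a bZIP factor that is also an immediate early gene. It was at 1.63, 1.35 and 0.912 CPM with vehicle and 1.15, 0.692 and 1.91 CPM with esculetin. The highest and the lowest library were both esculetin libraries, replicates 3 and 2. Its log2 fold change of -0.06 had a standard error of 0.40 (fold interval 0.514 to 1.79, unadjusted p = 0.888), and its sign turned to 0.04 when every library was thinned to the smallest total.

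Nupr1 (chromosome 7, 126222414 to 126230033, minus strand) encodes a small chromatin-associated stress protein. It was at 0.681, 1.41 and 2.04 CPM with vehicle and 1.27, 1.5 and 1.61 CPM with esculetin. All esculetin libraries lay within the 3.00-fold range of the vehicle libraries. Nupr1 had a log2 fold change of 0.09 with a standard error of 0.38 (fold interval 0.594 to 1.91, unadjusted p = 0.817) and it was -0.02 in the thinned libraries.

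Ppp1r15a and Trib3 act as brakes on the branch. Ppp1r15a (chromosome 7, 45172340 to 45175692, minus strand) encodes GADD34, which directs protein phosphatase 1 to eIF2. It was at 6.43, 8.90 and 8.97 CPM with vehicle and 9.89, 8.85 and 9.41 CPM with esculetin. Esculetin replicates 1 and 3 were above all vehicle libraries and esculetin replicate 2 was just below the upper vehicle libraries, so the groups overlapped. This gave a log2 fold change of 0.21 with a standard error of 0.15 (fold 1.16, 95% interval 0.912 to 1.47, unadjusted p = 0.200).

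Trib3 (chromosome 2, 152179337 to 152191958, minus strand) encodes a pseudokinase that binds ATF4 and AKT. It was at 2.52, 5.56 and 3.17 CPM with vehicle and 4.45, 4.38 and 6.24 CPM with esculetin. Vehicle replicate 2 was above esculetin replicates 1 and 2, and the other two vehicle libraries were below all esculetin libraries. Over all libraries Trib3 had a log2 fold change of 0.42 with a standard error of 0.29 (fold 1.33, 95% interval 0.856 to 2.08, edgeR's quasi-likelihood test, unadjusted p = 0.177, adjusted p = 0.611). Without vehicle replicate 2 it was 0.82 (edgeR's quasi-likelihood test, unadjusted p = 0.00842, adjusted p = 0.492) and Trib3 was called. By the same test it fell to 0.20 without vehicle replicate 1 (unadjusted p = 0.490) and to 0.23 without esculetin replicate 3 (unadjusted p = 0.477).

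Chac1 and Sesn2 belong to the redox and nutrient arm. Chac1 (chromosome 2, 119180757 to 119184866, plus strand) encodes an enzyme that breaks down glutathione. Its level was 0.272, 1.41 and 7.44 CPM in the vehicle libraries, from 8, 46 and 204 counts, and 5.57, 3.63 and 8.00 CPM in the esculetin libraries, from 179, 126 and 268 counts. Vehicle replicate 3 lay inside the esculetin range, while vehicle replicates 1 and 2 were below all esculetin libraries. The vehicle libraries thus spanned 27.3-fold, with a coefficient of variation of 127%, against 2.2-fold and 38.2% with esculetin. The fitted log2 fold change was 0.93 with a standard error of 0.76, so the 95% interval of the fold reached from 0.591 to 6.16 (edgeR's quasi-likelihood test, unadjusted p = 0.246, adjusted p = 0.674). Chac1 was the gene of the 10 whose value depended most on a single library, since its log2 fold change was 2.74 without vehicle replicate 3 (edgeR's quasi-likelihood test, unadjusted p = 0.000801, adjusted p = 0.155) and 0.39 without vehicle replicate 1 (unadjusted p = 0.504). It was also called with limma-voom (1.95), with a block for the replicate number (1.48) and without the filter on low counts (0.94). In the main fit 2 vehicle and 3 esculetin libraries were over that filter, so Chac1 was tested only with the help of the esculetin libraries.

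Sesn2 (chromosome 4, 132219335 to 132237815, minus strand) encodes sestrin 2, a leucine sensor that restrains mTORC1. It was at 4.66, 8.62 and 5.58 CPM with vehicle and 6.09, 7.67 and 6.96 CPM with esculetin. The highest and the lowest library were vehicle replicates 2 and 1, and the esculetin libraries lay between them. The log2 fold change was 0.13 with a standard error of 0.22 (fold interval 0.777 to 1.54, unadjusted p = 0.565), and it was -0.04 without vehicle replicate 1.

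**Figure D2:**
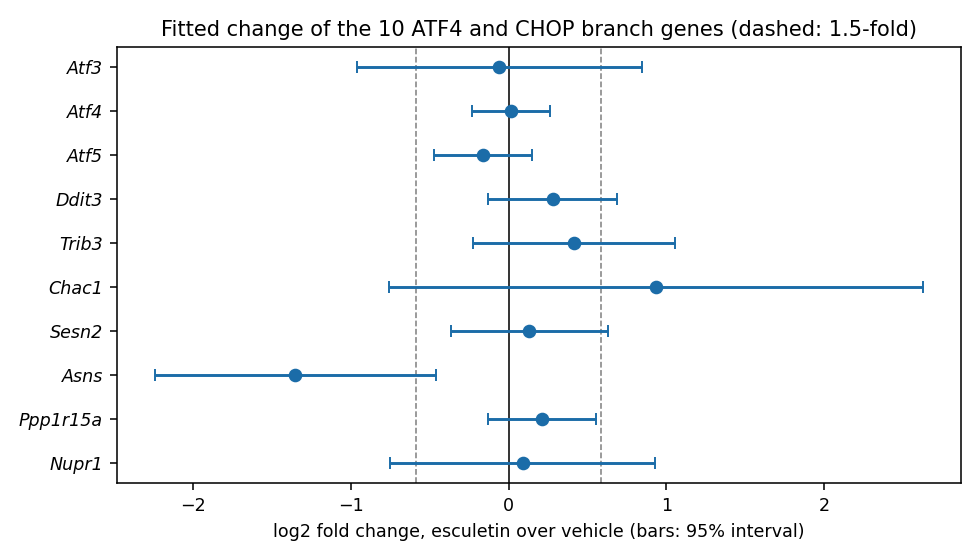
Fitted log2 fold change of esculetin over vehicle for the 10 genes, with 95% intervals from edgeR's quasi-likelihood fit as bars and dashed lines at 1.5-fold. The interval of Asns lies below 0, and the intervals of the other 9 genes cross 0, with that of Chac1 the widest.

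No single library was the lowest or the highest for all 10 genes. Vehicle replicate 1 was the lowest vehicle library for 7 of them, all but Atf3, Atf4 and Atf5, and it was also the lowest for Asns, the gene that was lower with esculetin. Among the esculetin libraries the highest was replicate 1 for 4 genes, replicate 2 for 2 and replicate 3 for 4. The XBP1 and ATF6 arm of the unfolded protein response, which supplies ER chaperones, was read over the same libraries. Vehicle replicate 1 was the lowest vehicle library for 13 of its 15 genes, and esculetin replicate 1 the highest esculetin library for 12 of 15. In the library with the most chaperone mRNA, esculetin replicate 1, Ddit3, Ppp1r15a, Atf4 and Asns were each at the highest esculetin level, while Atf5 was at its lowest of all libraries.

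**Figure D3:**
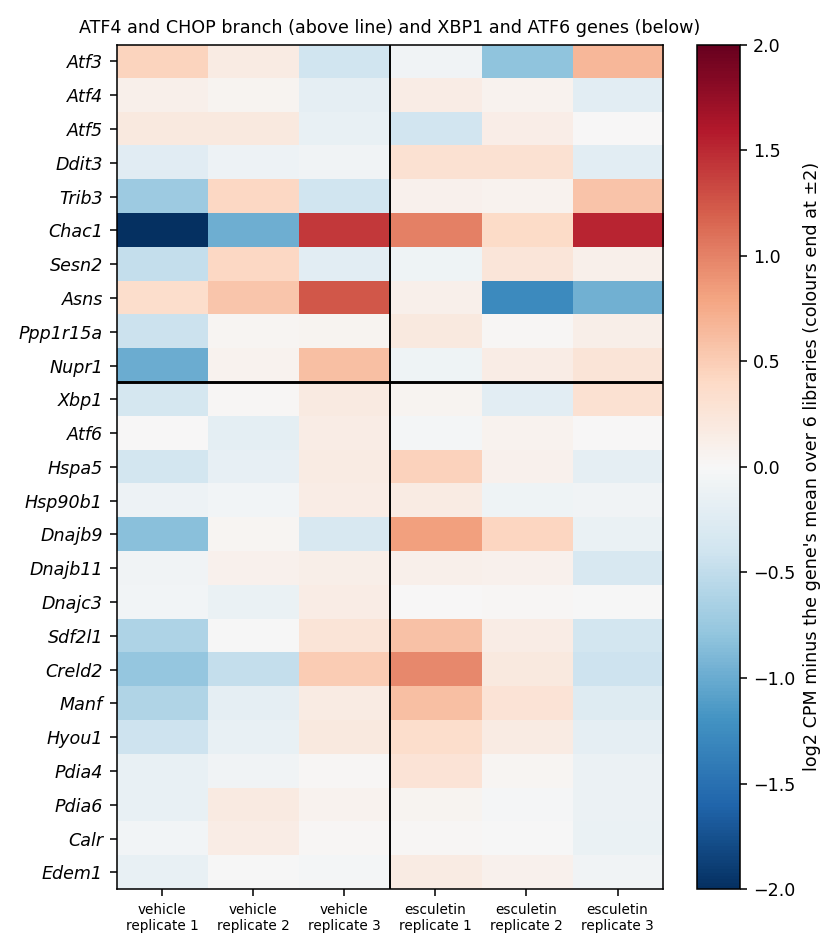
Log2 CPM of each gene in each library minus its mean over the 6 libraries, red above and blue below, for the 10 genes (above the line) and 15 XBP1 and ATF6 genes (below). The colour scale ends at 2 on either side, so vehicle replicate 1 of Chac1 is drawn at the end of the scale. Most chaperone genes are blue in vehicle replicate 1 and red in esculetin replicate 1, and no column is of 1 colour throughout the 10 genes.

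Other genes of the pathway were read from 6 further lists of 79 genes, of which 72 were tested. Unadjusted p-values under 0.05 were reached by 8 of these in the higher direction and 2 in the lower direction, where 6.53% and 5.32% of all genes tested did so. Of the 72 genes, 4 were called, all of them higher with esculetin, where 1.37% of all genes tested were called higher and 1.76% lower, and the median log2 fold change was -0.01. The counts differed between lists, so each is described in turn.

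The 16 genes upstream of ATF4, which are the eIF2 kinases, the subunits of eIF2 and its exchange factor and the regulators of its phosphorylation, had 0 genes with an unadjusted p-value under 0.05 by edgeR's quasi-likelihood test, and their median log2 fold change was -0.03. Eif2ak3, which encodes the ER stress kinase PERK, was at 15.9, 21.9 and 13.1 CPM with vehicle and 24.8, 19.6 and 16.4 CPM with esculetin, with overlapping groups and a log2 fold change of 0.25 (standard error 0.20). That value was 0.48 without vehicle replicate 2 (unadjusted p = 0.0284, edgeR's quasi-likelihood test) and 0.08 without esculetin replicate 1, and its unadjusted p-value was 0.0479 without the filter on low counts. The kinases for heme shortage (Eif2ak1), double-stranded RNA (Eif2ak2) and uncharged tRNA (Eif2ak4) had log2 fold changes of -0.05, -0.04 and -0.03. Ppp1r15b, which encodes the constitutive eIF2 phosphatase subunit, had one of -0.13 (standard error 0.07).

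The amino acid targets of ATF4 are the neighbours of Asns in function. Of 12 listed genes of amino acid synthesis and one-carbon metabolism, 9 were tested, 0 were called, where 3.13% of all genes were, and the median log2 fold change was -0.06. Phgdh, which opens serine synthesis, was among the untested genes with 0, 6 and 0 counts with vehicle and 2, 6 and 2 with esculetin. Gpt2, the mitochondrial alanine aminotransferase, was at 453, 425 and 425 CPM with vehicle and 582, 527 and 446 CPM with esculetin (log2 fold change 0.26, edgeR's quasi-likelihood test, unadjusted p = 0.0306, adjusted p = 0.366), and vehicle replicate 1 was above esculetin replicate 3. The unadjusted p-value of Gpt2 was above 0.05 in 4 of the 6 fits that left out a library, the highest being 0.13 without esculetin replicate 1.

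Of 9 listed amino acid transporters, 7 were tested, 0 were called, again against 3.13%, and the median log2 fold change was -0.18. Slc3a2, the heavy chain shared by several transporters, was at 23.0, 21.4 and 21.5 CPM with vehicle and 25.6, 25.9 and 24.5 CPM with esculetin, so the groups did not overlap, as for 9.2% of all genes tested in the higher direction. Its log2 fold change was 0.20 (edgeR's quasi-likelihood test, unadjusted p = 0.0353, adjusted p = 0.381), which is under 1.5-fold. The unadjusted p-value was above 0.05 with DESeq2 (0.0681), total counts (0.0633) and the replicate block (0.0608), without the filter (0.0610), and in 4 of the 6 fits that left out a library.

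The cytosolic tRNA synthetases, which charge tRNAs with amino acids, had a fitted fold change above 1 for 1 of 12 genes, against 48.5% of all genes tested, and a median log2 fold change of -0.09. An unadjusted p-value under 0.05 in the lower direction was reached by 2 of the 12, against 5.32% of all genes. Cars1, the cysteinyl-tRNA synthetase, was at 30.2, 31.8 and 25.3 CPM with vehicle and 19.8, 21.6 and 22.1 CPM with esculetin. The groups did not overlap, and the log2 fold change was -0.46 with a standard error of 0.11 (edgeR's quasi-likelihood test, unadjusted p = 0.00151, adjusted p = 0.165). Iars1, the isoleucyl-tRNA synthetase, was at 45.8, 44.6 and 47.9 CPM with vehicle and 37.7, 38.9 and 40.9 CPM with esculetin, again without overlap (log2 fold change -0.24, standard error 0.08, unadjusted p = 0.0114, adjusted p = 0.273). Neither reached 1.5-fold, and 0 of the 12 were called.

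The largest values were in the list of other ATF4 and CHOP pathway genes. Of 15 listed genes 13 were tested, 5 had an unadjusted p-value under 0.05, all higher with esculetin, and 3 were called, where 6.53% of all genes passed that p-value and 1.37% were called in the higher direction. The median log2 fold change of the list was 0.54. Gdf15, which encodes a secreted stress hormone of the TGF-beta family, was at 0.477, 0.430 and 0.474 CPM with vehicle and 2.18, 2.71 and 1.73 CPM with esculetin, from 14, 14 and 13 counts and 70, 94 and 58 counts. Every esculetin library was more than 3-fold above every vehicle library. The log2 fold change was 2.25 with a standard error of 0.31 (fold 4.77, edgeR's quasi-likelihood test, unadjusted p = 3.03e-05, adjusted p = 0.0551), and it lay between 2.08 and 2.40 when single libraries were left out. The adjusted p-value of Gdf15 was 9.32e-06 with DESeq2, 1.86e-06 in edgeR without the filter on low counts and 0.0458 in edgeR with at least 10 counts required in every library, but it missed 0.05 under the other alternatives, at 0.0522 to 0.117 with all 6 libraries and 0.0501 to 0.310 with single libraries left out.

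Cebpb, which encodes the bZIP factor C/EBPβ, a partner of ATF4, was at 24.9, 35.6 and 30.2 CPM with vehicle and 53.7, 43.4 and 40.3 CPM with esculetin, without overlap. Its log2 fold change was 0.60 with a standard error of 0.14 (fold 1.51, edgeR's quasi-likelihood test, unadjusted p = 0.00211, adjusted p = 0.175), just over the fold threshold, and it fell under that threshold with total counts (0.57), without vehicle replicate 1 (0.47) and without esculetin replicate 1 (0.47). Cebpd, also called in this list and named after its values were seen, was at 2.79, 3.25 and 3.90 CPM with vehicle and 7.12, 3.57 and 4.60 CPM with esculetin, with overlapping groups (log2 fold change 0.62, standard error 0.26, unadjusted p = 0.0395, adjusted p = 0.393). Cebpd was not called with limma-voom, limma with trend or the replicate block, nor without vehicle replicate 1, vehicle replicate 2 or esculetin replicate 1.

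Herpud1, which encodes an ER membrane protein of protein degradation, was at 400.1, 518 and 434 CPM with vehicle and 761, 630 and 575 CPM with esculetin, without overlap (log2 fold change 0.54, standard error 0.13, edgeR's quasi-likelihood test, unadjusted p = 0.00166, adjusted p = 0.170). Eif4ebp1, which encodes an inhibitor of cap-dependent translation, was at 14.6, 18.9 and 20.1 CPM with vehicle and 25.6, 21.4 and 23.4 CPM with esculetin, also without overlap (log2 fold change 0.39, standard error 0.13, unadjusted p = 0.0126). Both were under 1.5-fold, although Herpud1 passed that fold and was called without vehicle replicate 2 (0.65) and without esculetin replicate 3 (0.63). With DESeq2 the adjusted p-value was 0.00424 for Herpud1, 0.00984 for Cebpb and 0.0291 for Cars1, so these 3 genes passed the correction there, and they also passed it in edgeR without the filter, at 1.98e-05, 5.67e-05 and 0.0122. Over all alternatives with 6 libraries their adjusted p-values reached up to 0.268, 0.292 and 0.273.

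**Figure D4:**
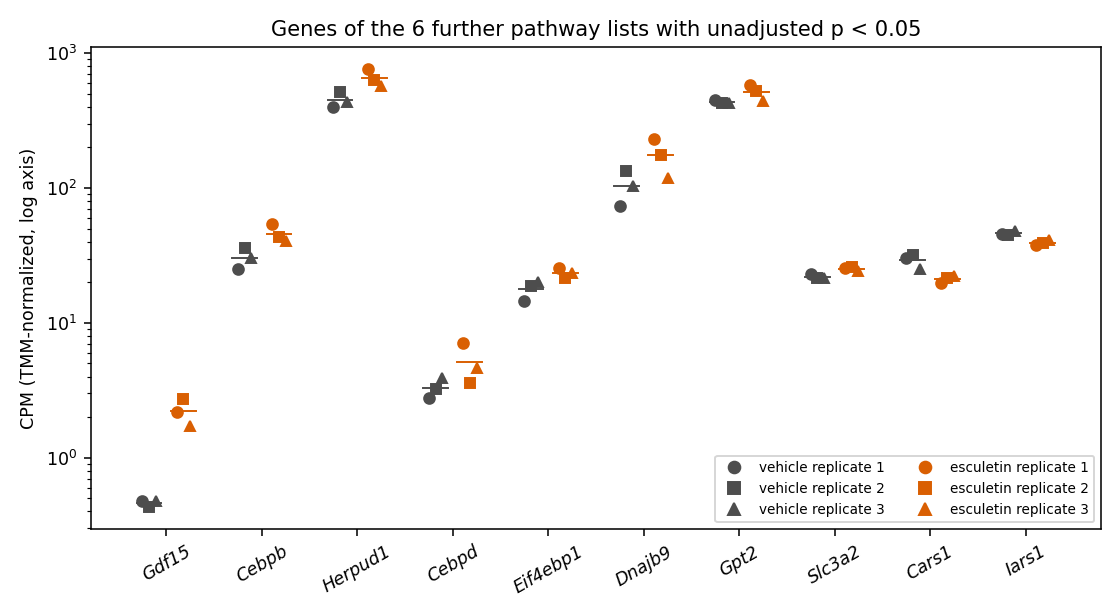
Level of the 10 genes of the 6 further pathway lists that had an unadjusted p-value under 0.05, as TMM-normalized CPM on a log axis, with vehicle in grey, esculetin in orange, the replicate number as symbol shape and the group mean as a short line (n = 3). The groups of Gdf15 are the farthest apart, and those of Cars1 and Iars1 are the ones that lie lower with esculetin.

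Of the 15 XBP1 and ATF6 genes, 1 was called, in the higher direction, where 1.37% of all genes were, and their median log2 fold change was 0.13. Dnajb9, an ER co-chaperone of BiP, was at 73.2, 134 and 104 CPM with vehicle and 230, 176 and 119 CPM with esculetin. Vehicle replicate 2 was above esculetin replicate 3, so the groups overlapped, with a log2 fold change of 0.75 and a standard error of 0.25 (edgeR's quasi-likelihood test, unadjusted p = 0.0126, adjusted p = 0.284, and adjusted p = 9.12e-07 without the filter). The gene was not called without vehicle replicate 1 (0.56) or without esculetin replicate 1 (0.51), the 2 libraries at the ends of the chaperone order given above.

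Mitochondrial chaperones and proteases, which respond to mitochondrial stress beside ATF4 and ATF5, had fold changes above 1 for 7 of 8 genes, against 48.5% of all genes tested. All esculetin libraries were above all vehicle libraries for 5 of the 8, against 9.2% of all genes. The protease subunit gene Clpp was at 21.7, 21.6 and 20.6 CPM with vehicle and 27.5, 26.9 and 25.5 CPM with esculetin (log2 fold change 0.32, standard error 0.08, edgeR's quasi-likelihood test, unadjusted p = 0.00322, adjusted p = 0.204). The chaperonin gene Hspe1 and the protease gene Lonp1 also had unadjusted p-values under 0.05, with log2 fold changes of 0.26 and 0.16. For Lonp1 (unadjusted p = 0.0449) that p-value was above 0.05 without any single library (0.0599 to 0.135), with DESeq2 (0.0652), total counts (0.0986) and the replicate block (0.0755), and without the filter (0.0745). All were under 1.5-fold, so 0 of the 8 were called.

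**Figure D5:**
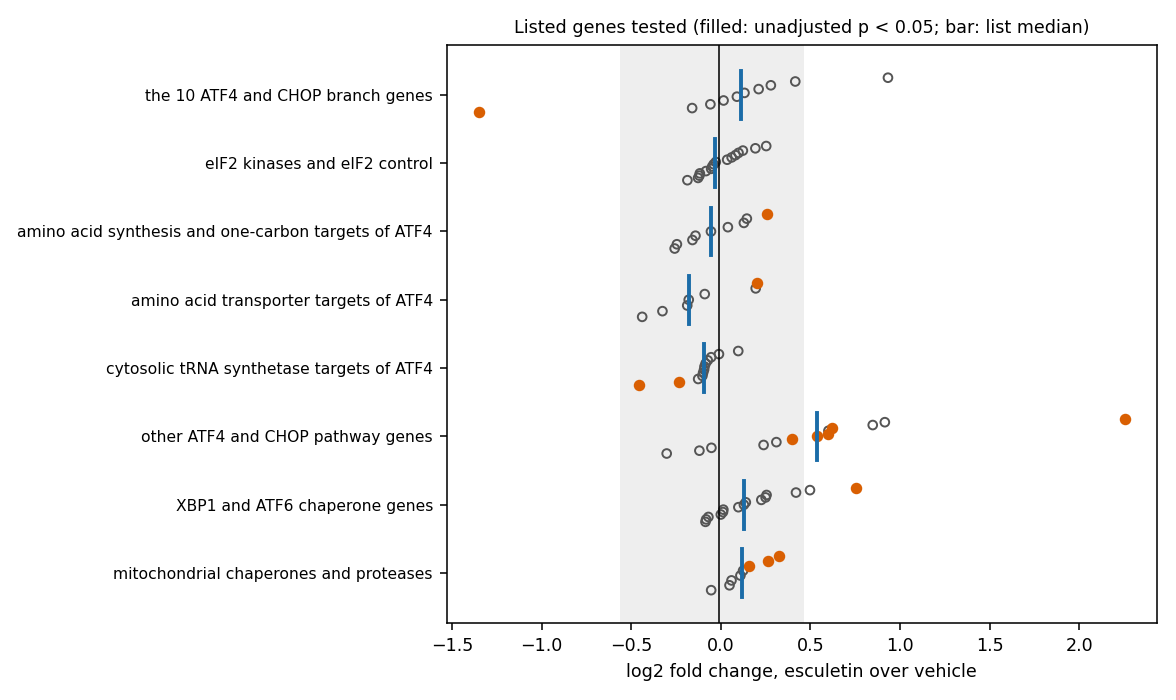
Log2 fold change of esculetin over vehicle for each tested gene of the 10 and of 7 other lists. Filled points have an unadjusted p-value under 0.05, blue bars are list medians, the grey band spans the 5th to 95th percentile of all genes tested (-0.56 to 0.46) and the black line is their median. Asns lies far to the left and Gdf15 far to the right of the band.

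Genes that respond to acute stimuli or time of day were read beside these values, since Atf3, Ppp1r15a and other genes of the branch are also known to respond quickly to acute stimuli. Of all genes tested, 3.13% were called, and 6.53% and 5.32% had an unadjusted p-value under 0.05 in the higher and the lower direction. Of 12 immediate early genes 0 were called and 1 had an unadjusted p-value under 0.05, Dusp1, at 36.5 ± 3.10 CPM with vehicle and 24.8 ± 1.98 CPM with esculetin (n = 3). Its log2 fold change was -0.56 (edgeR's quasi-likelihood test, unadjusted p = 0.000219, adjusted p = 0.132), just under 1.5-fold. With single libraries left out that value lay between -0.61, which is past 1.5-fold, and -0.49. The adjusted p-value of Dusp1 ranged from 0.00034 to 0.142 over the alternatives with all 6 libraries. Of 13 core clock genes tested, 0 were called, and 2 had an unadjusted p-value under 0.05, Per3 and Clock, with log2 fold changes of -0.29 and -0.25. Their p-values reached 0.125, without vehicle replicate 1, and 0.118, without esculetin replicate 1, and that of Per3 was 0.0508 with the replicate block. Of the marker lists of cell types, 3 of 10 hepatocyte genes had unadjusted p-values under 0.05, all higher, led by Serpina1c (log2 fold change 0.52) and Apoa2 (0.37), while 0 of 7 endothelial and 0 of 8 stellate genes did. The macrophage marker Cd68 was lower at that threshold (log2 fold change -0.37), 7 of the 8 macrophage markers had fold changes below 1, and the summed list level was 308 to 411 CPM with vehicle and 316 to 324 CPM with esculetin. The cholangiocyte marker Spp1 was lower as well (-0.75), but the other 4 cholangiocyte markers tested had fold changes above 1 and did not pass the test, and the list median was 0.24. Without vehicle replicate 3 the unadjusted p-values of Cd68 and Spp1 were 0.0911 and 0.0851 (log2 fold changes -0.27 and -0.47). Cd68 was also above 0.05 without esculetin replicates 1 or 3, and Spp1 without esculetin replicate 2. Spp1 held most of that list's summed level, which was 39.7 to 80.8 CPM with vehicle and 30.7 to 45.9 CPM with esculetin. Markers of scarce cells had summed list levels of at most 6.12 CPM in any library. Among them S100a9 for neutrophils (log2 fold change 0.99) had an unadjusted p-value under 0.05 and was highest in esculetin replicate 1. Without that library its p-value was 0.224 (log2 fold change 0.58, edgeR's quasi-likelihood test), and with all 6 libraries it reached up to 0.0581. The lymphocyte marker Cd79a was at 8, 12 and 14 counts with vehicle and 42, 24 and 17 counts with esculetin. The adipocyte marker Cfd was at 18, 8 and 0 counts with vehicle and 36, 24 and 36 counts with esculetin. Cd79a and Cfd passed the filter on low counts through the esculetin libraries, so their differences are given as counts only. The part of these genes in the results for the ATF4 and CHOP branch was not tested.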

How the data were processed

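Liver RNA was sequenced in 6 libraries (3 per group). The authors used HISAT 2.2.1 (GRCm39) and featureCounts, and the table they deposited holds raw counts per gene and library. The annotation release and the strand setting are not given in the sources used here. Symbols, positions and transcript lengths were read from GENCODE (GRCm39), where 54749 of 55357 identifiers were found. The 10 genes and all gene lists were chosen with earlier results of these data known, so list counts and medians are descriptions.

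Genes were kept with filterByExpr (at least 0.309 CPM in 3 libraries), counts were scaled with TMM, and all genes were fitted in edgeR 4.0.16 (R 4.3.3, quasi-likelihood test), with Benjamini-Hochberg adjustment over all 14433 genes. All tests were two-sided. The study's thresholds, p under 0.05 and a fold over 1.5, made a call, with p unadjusted. Chac1 passed the filter although vehicle replicate 1 was under it. The standard error of a log2 fold change is its size over the square root of F. Chi-square per gene between libraries of 1 group was 26.6 or more, so none was a copy. Each library pools mice, and p-values measure the spread between such pools.

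The test was checked on counts simulated from these libraries. It called 89.9% of 198 genes changed 2-fold (14375 genes tested) and 45.7% of 199 genes changed 1.5-fold (14351 tested). An unadjusted p-value under 0.05 by this test was reached by 90.4% and 66.8% of these genes. The 1.5-fold change equals the fold threshold of a call, so estimates below it were not called whatever their p-value. The percentages were not worked out for the branch genes alone, so they do not give the power for those genes.

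Named outside the 10 genes were up to 4 genes with the smallest unadjusted p under 0.05 from each pathway list and the mitochondrial list, the eIF2 kinases with Ppp1r15b, and up to 2 such genes from each other list. Alternatives were DESeq2 1.42.0, limma-voom and limma with trend (limma 3.58.1), scaling by total counts or DESeq2 size factors, a minimum of 10 counts in every library or no filter, a block for the replicate number, leaving out single libraries, other fold thresholds, and libraries thinned to the smallest total.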

Additional observations from a re-analysis of the deposited data

How the results depend on the processing

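With all 6 libraries, Asns was called under each alternative and its log2 fold change stayed between -1.41 and -1.34. Of the 10 genes, 2 were called with limma-voom, without the filter and with the replicate block (1.48 for Chac1), the second gene being Chac1 each time, and between 1 and 2 when single libraries were left out. An unadjusted p-value under 0.05 was reached by 2 with limma-voom, 3 without the filter, 2 with the block, and 1 to 3 without single libraries. At least 10 counts in every library left 9 of the 10 genes to test, without Chac1. Of the further pathway genes, 7 were called without the filter, 10 without a fold threshold, 1 (Gdf15) with a fold over 2 and 3 to 8 without single libraries, the 8 without esculetin replicate 3. Over all genes, 776 were called without the filter, 1711 without a fold threshold, 217 with a fold over 2 and 411 to 588 without single libraries.

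The direction turned for Atf3 (0.0377 thinned, -0.50 to 0.24 without single libraries), Atf4 (-0.0107 with total counts, -0.0619 to 0.12), Nupr1 (-0.0211 thinned, -0.23 to 0.48), Sesn2 (-0.0435 to 0.44), Eif2ak2 (-0.0873 to 0.0465) and Eif2ak4 (-0.15 to 0.0738), where each range is over single libraries left out. The cause was not tested. Without esculetin replicate 3 the log2 fold change of Ddit3 was 0.43 (unadjusted p = 0.0296), and without vehicle replicate 2 that of Sesn2 was 0.44 (unadjusted p = 0.0415), both by edgeR's quasi-likelihood test and both under 1.5-fold.

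The labels do not say whether libraries with the same replicate number were handled together. Deviations from the group means of same-numbered libraries correlated at -0.0689, -0.0108 and 0.00274 over genes. These values show no strong shared effect, but they cannot decide whether the libraries were paired. The block gave 399 calls over all genes against 452. Over all genes, the number that passed the correction was 193 with DESeq2, 477 without the filter, 15 with the block and 2 to 45 without single libraries, against 6. In simulated counts 45.7% of 1.5-fold changes were called, and 66.8% had an unadjusted p-value under 0.05 by edgeR's quasi-likelihood test. Estimates below the fold threshold of 1.5 could not be called. The power for the branch genes alone was not tested.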
